A study of Rattus norvegicus with 9 samples.

Results

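The genes described here are 10 genes of adrenal-type steroid and catecholamine synthesis, read in the kidneys of 3 inbred rat strains. They are Star, Cyp11a1, Hsd3b2, Hsd3b1, Cyp21a1, Cyp11b1 and Akr1b7 of steroid-making cells, and Th, Slc18a1 and Chgb of chromaffin and nerve cells. They were taken from 13903 named genes on the array by matching the RefSeq identifier of each probe to these symbols. All 10 were found, each with 1 probe, and all 10 probes passed the filter on low signal. Hsd3b2 and Akr1b7 were selected on their measured differences between strains, so their values are given as a description with no test, and the other 8 were added for their roles.

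The groups are Dahl S, the Dahl salt-sensitive rat, SHR, the spontaneously hypertensive rat, and Dahl R, the Dahl salt-resistant rat bred from the same stock as Dahl S. Each group is 3 male rats with 1 kidney array per rat. All 9 rats were born on 1 day, weaned at 30 days, given a low-salt diet of 0.3% and taken at 53 days, and the labels name no drug. Total RNA (1 μg) was labelled with Cy3 for a one-colour array. The labels do not say whether rats shared a litter, so the p-values measure only the spread between these samples.

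The adrenal cortex makes steroids from cholesterol. The Star protein moves cholesterol into the mitochondrion, Cyp11a1 cuts its side chain to give pregnenolone, and 3β-hydroxysteroid dehydrogenases of the Hsd3b family turn pregnenolone into progesterone, from which Cyp21a1 and Cyp11b1 make corticosterone, the main glucocorticoid of the rat. The kidney is chiefly a target of these hormones: it carries the mineralocorticoid receptor and the enzymes that convert corticosterone to and from its inactive form. The adrenal gland lies against the kidney, and its medulla makes catecholamines, starting with tyrosine hydroxylase (Th).

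Hsd3b2 and Akr1b7 belong to the genes with the widest strain differences, and Hsd3b1 is a copy that lies near Hsd3b2. Their promoters are shown for that reason. Each runs from 250 bases before to 50 bases after the gene's start in RefSeq annotation of GRCr8, 5′ to 3′ on the gene's strand. Hsd3b2 lies at chr2:188794020-188794319 on the minus strand, Hsd3b1 at chr2:188864645-188864944 on the minus strand and Akr1b7 at chr4:64043720-64044019 on the plus strand. Capitals mark matches to AAGGTCA or AAGGCCA, the core bound by the steroidogenic factor SF-1 (either strand), to AGAACA, a hexamer of steroid receptor sites (either strand), to TGACG, the core of cAMP response elements (either strand), or to TATAAA, the TATA box (sense strand).
Hsd3b2: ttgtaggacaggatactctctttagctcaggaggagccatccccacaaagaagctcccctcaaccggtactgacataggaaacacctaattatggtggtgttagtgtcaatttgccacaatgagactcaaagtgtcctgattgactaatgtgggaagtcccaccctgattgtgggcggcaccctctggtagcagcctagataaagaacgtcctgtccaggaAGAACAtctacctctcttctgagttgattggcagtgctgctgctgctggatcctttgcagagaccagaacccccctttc
Hsd3b1: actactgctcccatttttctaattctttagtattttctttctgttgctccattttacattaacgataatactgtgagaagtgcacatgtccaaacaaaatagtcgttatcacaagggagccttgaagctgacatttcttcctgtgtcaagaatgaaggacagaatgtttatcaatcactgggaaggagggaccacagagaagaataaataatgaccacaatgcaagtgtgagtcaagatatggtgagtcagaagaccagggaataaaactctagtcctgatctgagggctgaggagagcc
Akr1b7: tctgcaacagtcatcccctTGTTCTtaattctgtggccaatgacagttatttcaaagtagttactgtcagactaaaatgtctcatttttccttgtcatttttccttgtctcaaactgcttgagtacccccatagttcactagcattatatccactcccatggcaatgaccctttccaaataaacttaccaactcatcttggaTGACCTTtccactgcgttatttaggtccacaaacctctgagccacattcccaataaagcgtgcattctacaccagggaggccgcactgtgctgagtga
The Hsd3b2 window held 1 AGAACA, starting 29 bases before the gene's start, and the Hsd3b1 window held no match. The Akr1b7 window held 2 matches on the reverse strand, an SF-1 core 48 bases before the start and an AGAACA hexamer 231 bases before it. Of 33469 rat promoters of this length, 10.5% held an SF-1 core, 20.7% an AGAACA, 21.2% a TGACG and 8.80% a TATAAA, so single matches of these kinds are common. Promoters of Cyp11a1, Cyp21a1, Chgb and Th were searched too: Cyp21a1 had 3 matches, Th had 3, Chgb had 1 and Cyp11a1 had 0.

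Signals are on the log2 scale after division by the 75th percentile of the spots on that array, so 0 is the brightness at that percentile. They compare 1 probe between arrays and not 1 gene with another. SHR replicate 3 stood apart: 43.1% of its probes were well above background, against 60.1% to 70.3% on the other 8 arrays, and its median local background was 88 against 43 to 45. The 75th percentile was taken with outlier-marked spots included. On SHR replicate 3 it was 1462 with them and 710 without, so levels there depend on that choice, and it moved far less on the other 8 arrays. Cyp11b2, Dbh and Chga, detected on no array, read -4.71, -4.72 and -4.66 there and between -9.24 and -7.77 on the other 8 arrays. Of the 10 genes, Hsd3b1 and Cyp21a1 alone were well above background on that array, so each result is also given without it where it matters. A gene was called changed when its adjusted p was under 0.05. All 11 kidney segment markers on the array, such as the loop gene Umod, were well above background on every array.

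Hsd3b2 signal was lowest in Dahl S, intermediate in SHR and highest in Dahl R. In Dahl S it read -7.86, -8.31 and -8.08, not well above background on any of the 3 arrays. In SHR it read -5.66, -5.23 and -4.03, well above background on the first and second array. In Dahl R it read -2.81, -3.13 and -3.19, well above background on all 3 arrays. The 3 strains did not overlap. The log2 difference was -5.04 ± 0.38 (SE) for Dahl S against Dahl R, and since Dahl S was at background this is reported as at least 10.5-fold lower, the bound being taken against the lowest signal that counted as well above background on each array. It was -1.93 ± 0.38 for SHR against Dahl R, or -2.40 ± 0.19 without SHR replicate 3. With the percentile taken over unmarked spots it was -1.58 ± 0.61. Dahl S was at least 1.99-fold lower than SHR, the bound here using the mean of the 2 SHR arrays on which Hsd3b2 was well above background. With normexp background correction in a fit that left out spots of high local background, the difference for Dahl S against Dahl R shrank to -2.23. A plain normexp fit gave -0.77. Both normexp fits added an offset of 50 to every signal, which by itself narrows differences that involve dim signals. Shrinkage from the offset and from the background correction cannot be told apart here. In whole-kidney RNA, fewer cells that express a gene and less of its RNA per cell cannot be told apart.

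Akr1b7 ran the other way. This aldo-keto reductase, known in mouse from the adrenal cortex and the vas deferens, reduces the aldehyde left when the side chain of cholesterol is cut. It read -1.49, 0.61 and -2.75 in Dahl S, well above background on all 3 arrays. It read -8.27, -4.28 and -4.66 in SHR, well above background on replicate 2 alone, and -7.95, -7.57 and -7.28 in Dahl R, well above background on none. Every Dahl S array was above every array of the other strains, whereas SHR and Dahl R overlapped. The log2 difference was 6.39 ± 1.17 for Dahl S against Dahl R, at least 59.3-fold higher, and 4.52 ± 1.17 for Dahl S against SHR. The difference from SHR was 5.06 ± 1.30 without SHR replicate 3, and both values include SHR signals not well above background. For SHR against Dahl R the log2 difference was 1.87 ± 1.17, and 1.33 ± 1.30 without SHR replicate 3. That last comparison varied with the arrays kept. Without SHR replicate 1 it was 3.13, a value that includes SHR replicate 3, where Akr1b7 was not well above background. In the authors' values it was 0.60. The normexp fit that left out spots of high local background, with the same added offset, gave 3.81 for Dahl S against Dahl R.

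The spread of Akr1b7 within strains was wide. Its highest Dahl S array was 10.3-fold above the lowest, and its pooled within-strain SD was 1.62 on the log2 scale, a value exceeded by 0.976% of 16588 probes. Hsd3b2 had a pooled SD of 0.52, exceeded by 18.3% of probes, and its highest Dahl R array was 1.30-fold above the lowest.

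**Figure D1:**
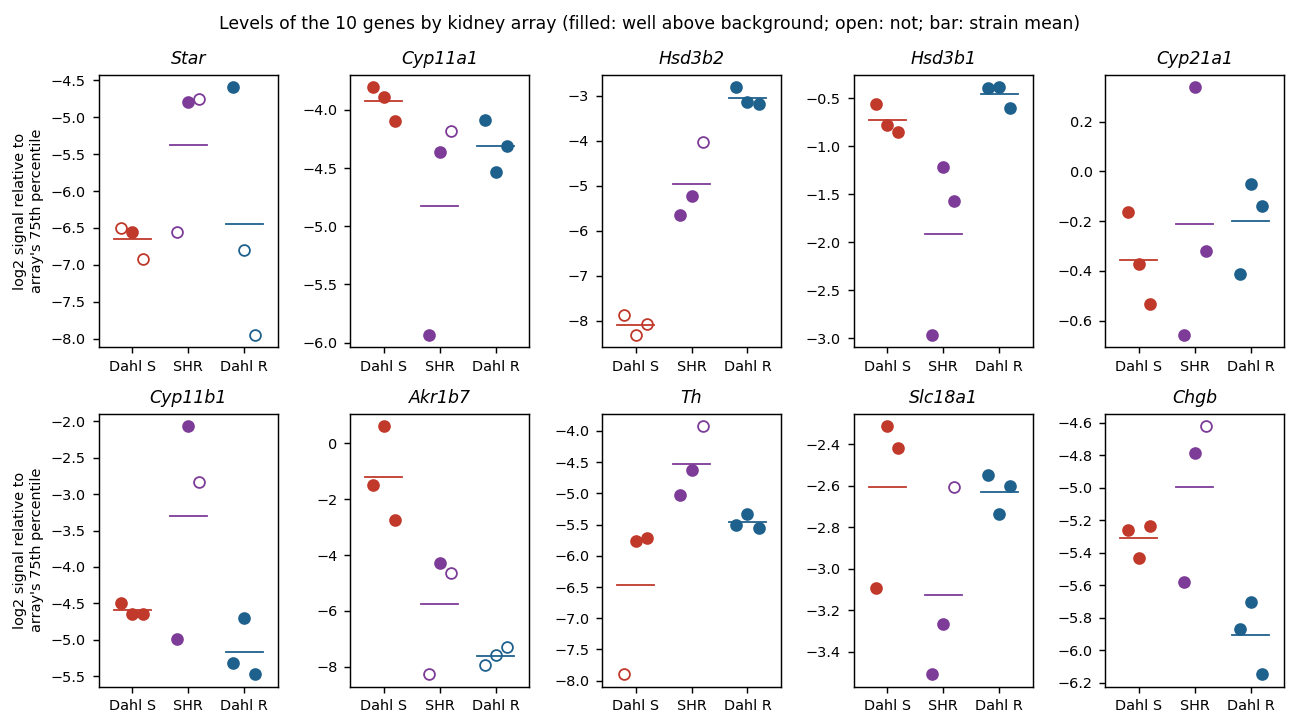
Level of each of the 10 genes on each kidney array, in log2 units with the array's 75th percentile set to 0; each panel has its own vertical axis, points are rats, filled points are well above background, open points are not, and bars are strain means. Hsd3b2 lies at -8.31 to -7.86 in Dahl S and -3.19 to -2.81 in Dahl R, and Akr1b7 at -2.75 to 0.61 in Dahl S and -7.95 to -7.28 in Dahl R.

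The arrays were scanned together in 3 sets. The first held all Dahl S arrays and Dahl R replicate 1, the second Dahl R replicates 2 and 3 with SHR replicates 1 and 2, and the third SHR replicate 3 alone. Within the first set, against its single Dahl R array, Hsd3b2 differed by -5.27 and Akr1b7 by 6.74 for Dahl S against Dahl R. Within the second set, Hsd3b2 differed by -2.28 and Akr1b7 by 1.15 for SHR against Dahl R.

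None of the 8 genes added for their roles passed the test in any comparison. For Dahl S against Dahl R, 0 of 8 were called, beside 1.40% of all 16592 probes tested, and 1 had an unadjusted p under 0.05. For SHR against Dahl R, 0 of 8 were called, beside 13.0% of all probes, and 3 had an unadjusted p under 0.05. Between Dahl S and SHR, 0 of 8 were called, beside 15.7% of all probes, and 2 had an unadjusted p under 0.05. The strains did not overlap for 3 of the 8 in each comparison, beside 31.1%, 38.7% and 37.9% of all probes in the same order.

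Star, the cholesterol carrier that starts the pathway, was near background. It read -6.50, -6.55 and -6.92 in Dahl S, -6.55, -4.79 and -4.76 in SHR and -4.59, -6.80 and -7.95 in Dahl R, and it was well above background on 1 array of each strain. The strains overlapped, and limma gave an adjusted p of 0.988 for Dahl S against Dahl R. Within the first scan set the Dahl S minus Dahl R difference was -2.07, against -0.21 over all arrays, because that set holds Dahl R replicate 1, the brightest of its strain.

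Cyp11a1, the side-chain cleavage enzyme, read -3.80, -3.89 and -4.09 in Dahl S, -5.94, -4.36 and -4.18 in SHR and -4.08, -4.53 and -4.31 in Dahl R. It was low on SHR replicate 1, and Dahl S and Dahl R overlapped. The log2 difference was 0.38 ± 0.42 for Dahl S against Dahl R (adjusted p = 0.883, limma).

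Hsd3b1, a copy 2 protein-coding genes along from Hsd3b2, did not share its pattern. Hsd3b5, the copy next to Hsd3b2 on the other side, is described with the neighbours below. Hsd3b1 read -0.56, -0.78 and -0.85 in Dahl S, -2.97, -1.21 and -1.57 in SHR and -0.40, -0.38 and -0.60 in Dahl R. The Dahl strains overlapped, and every SHR array lay below both. The log2 difference was -0.27 ± 0.40 for Dahl S against Dahl R (adjusted p = 0.927, limma). It was -1.46 ± 0.40 for SHR against Dahl R, with an adjusted p of 0.0521 over all arrays and 0.0400 without SHR replicate 3, when 22.8% of probes were called. For Dahl S against SHR it was 1.19 ± 0.40 (adjusted p = 0.0871).

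Cyp21a1, the steroid 21-hydroxylase, was well above background on every array. It read -0.16, -0.37 and -0.53 in Dahl S, -0.66, 0.34 and -0.32 in SHR and -0.41, -0.05 and -0.14 in Dahl R. All 3 strains overlapped, with limma adjusted p-values of 0.937 for Dahl S against Dahl R, 0.977 for SHR against Dahl R and 0.720 for Dahl S against SHR.

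Cyp11b1, which makes corticosterone in the rat, read -4.50, -4.64 and -4.64 in Dahl S, -5.00, -2.07 and -2.83 in SHR and -5.32, -4.70 and -5.48 in Dahl R. Dahl S lay above Dahl R without overlap, SHR replicate 2 was high and SHR replicate 1 lay among the Dahl R arrays. The log2 difference for SHR against Dahl R was 1.87 ± 0.66 (adjusted p = 0.112, limma). It was 2.72 without SHR replicate 1 (adjusted p = 0.00262) and 1.63 without SHR replicate 3 (adjusted p = 0.171), on which Cyp11b1 was not well above background.

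**Figure D2:**
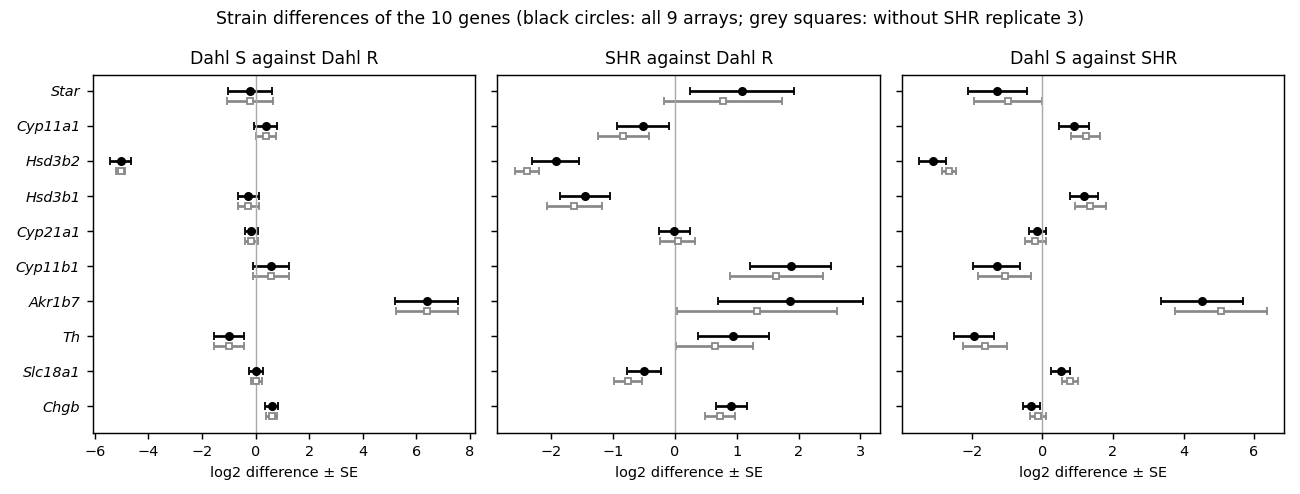
Log2 differences ± SE of the 10 genes between strains (horizontal axis), for Dahl S against Dahl R, SHR against Dahl R and Dahl S against SHR; black circles use all 9 arrays and grey squares leave out SHR replicate 3. For Dahl S against Dahl R, Hsd3b2 stands at -5.04 and Akr1b7 at 6.39, while the other 8 lie between -0.99 and 0.60.

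The 3 genes of chromaffin and nerve cells were measured as well. Th, the first enzyme of catecholamine synthesis, read -7.90, -5.77 and -5.72 in Dahl S, -5.03, -4.62 and -3.93 in SHR and -5.51, -5.33 and -5.56 in Dahl R. Every Dahl S array was below every array of the other strains, and Dahl S replicate 1 and SHR replicate 3 were not well above background. Against SHR the Dahl S difference was -1.93 ± 0.57 (adjusted p = 0.0599, limma), and -1.63 ± 0.63 without SHR replicate 3 (adjusted p = 0.0992). It was -1.22 without Dahl S replicate 1 (adjusted p = 0.0494), when 1764 of all probes were called. The plain normexp fit turned its direction, to 0.12.

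Chgb, a granin of secretory granules, read -5.26, -5.43 and -5.24 in Dahl S, -5.58, -4.79 and -4.62 in SHR and -5.87, -5.71 and -6.15 in Dahl R. Dahl R was lowest, without overlap. The log2 difference for SHR against Dahl R was 0.91 ± 0.25 (adjusted p = 0.0506, limma), and quantile normalization turned its direction, to -0.19. Against Dahl R the Dahl S difference was 0.60 ± 0.25 (adjusted p = 0.449).

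Slc18a1, the vesicle transporter that loads monoamines in endocrine cells, read -3.10, -2.31 and -2.42 in Dahl S, -3.51, -3.27 and -2.61 in SHR and -2.55, -2.74 and -2.60 in Dahl R. Dahl S and Dahl R overlapped, with a log2 difference of 0.02 ± 0.27 (adjusted p = 0.998, limma). Without SHR replicate 3, on which it was not well above background, Dahl S was above SHR by 0.78 ± 0.23 (adjusted p = 0.0467), when 26.2% of probes were called.

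Other markers of the adrenal gland gave a check on tissue carried over with the kidney. Of 12 cortex markers on the array other than Hsd3b2, between 8 and 9 were well above background in Dahl S, 6 to 10 in SHR and 8 to 10 in Dahl R. Their signals were summed on a linear scale in units of the array's 75th percentile, and all marker sums kept outlier-marked spots. The cortex sum was 15.4 to 17.6 in Dahl S, 15.0 to 16.7 in SHR and 18.3 to 19.5 in Dahl R. Fdx1 and Mrap, which are not confined to steroid-making cells, made up 69.6% to 76.3% of this sum on each array, whereas Cyp11a1 and Cyp11b1 each made up at most 1.43%. Such shares are of probe signal, and they do not compare the RNA of 1 gene with that of another. Cyp11b2, the aldosterone synthase, was detected on none of the 9 arrays, whereas Cyp11a1 and Cyp11b1 were well above background on all but SHR replicate 3. Of 10 medulla markers, 6 to 8 were detected in Dahl S, 2 to 8 in SHR and 7 to 8 in Dahl R, with summed signals of 15.3 to 17.7, 11.1 to 21.9 and 11.4 to 15.6 in the same order. Without SHR replicate 3, 8 were detected on each SHR array, with sums of 11.1 to 14.6. Ddc, which the kidney tubule also expresses, made up 81.2% to 84.3% of the medulla sum. Dbh and Chga, which mark chromaffin cells, were well above background on no array. The part of carried-over adrenal cells in the Hsd3b2 and Akr1b7 results was not tested beyond these values.

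Over all probes, 1.40% were called for Dahl S against Dahl R, 13.0% for SHR against Dahl R and 15.7% between Dahl S and SHR. The marker counts that follow stand beside these shares. Among the 10 tested cortex genes other than Hsd3b2, 0 were called for Dahl S against Dahl R and 0 for SHR against Dahl R, and 2 were lower in Dahl S than in SHR. They were Nr0b1, a nuclear receptor that restrains steroid synthesis, and Inha, the inhibin alpha subunit. Nr0b1 was well above background on 0 Dahl S and 2 SHR arrays, with a log2 difference of -2.06 ± 0.37 (adjusted p = 0.00951, limma), reported as at least 1.35-fold lower from those 2 SHR arrays. Its call was lost with quantile normalization (-1.18, adjusted p = 0.299), in the authors' values (-1.15, adjusted p = 0.328), with the scan sets as a block (-1.22, adjusted p = 0.185) and with the percentile over unmarked spots (-2.43, adjusted p = 0.0695), and both normexp fits lost it too. Inha read 0.16, 0.00 and 0.05 in Dahl S against 0.49, 0.53 and 0.76 in SHR. Among the 8 tested medulla genes, Scg2, a granin also made by neurons, was lower in SHR than in Dahl R by -1.29 ± 0.32 on the log2 scale (adjusted p = 0.0399, limma), and higher in Dahl S than in SHR by 2.00 ± 0.32 (adjusted p = 0.00647). No other medulla gene was called in these comparisons. The scan sets as a block ended both Scg2 calls, with adjusted p-values of 0.178 between Dahl S and SHR and 0.110 between SHR and Dahl R, and the Inha call, with 0.150. Quantile normalization and the authors' values also ended both Scg2 calls. The plain normexp fit, the percentile over unmarked spots and leaving out some single arrays ended the Inha call and the Scg2 call between SHR and Dahl R. The 4 tested markers of testis steroid cells were not called in any comparison, and their summed signal was 0.32 to 0.38 in Dahl S, 0.34 to 0.60 in SHR and 0.32 to 0.43 in Dahl R. Perirenal fat markers summed to 64.4 to 105 in Dahl S, 89.4 to 151 in SHR and 124 to 170 in Dahl R. In this sum every Dahl S array lay below every Dahl R array. Outlier-marked spots are kept in it, among them those of Fabp4, Lpl and Ucp1 on SHR replicate 3. Pck1 had the brightest probe of the fat markers on every array, so the sums largely follow that gene. It read 6.02, 5.54 and 5.30 in Dahl S and 6.87, 7.09 and 6.35 in Dahl R. Adipoq, Cfd, Cidec, Fabp4 and Lpl overlapped between Dahl S and Dahl R, whereas Ucp1 was lower on every usable Dahl S array. Lpl and Ucp1, of 7 tested fat genes, were higher in SHR than in either Dahl strain, and the part of fat in the results was not tested.

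**Figure D3:**
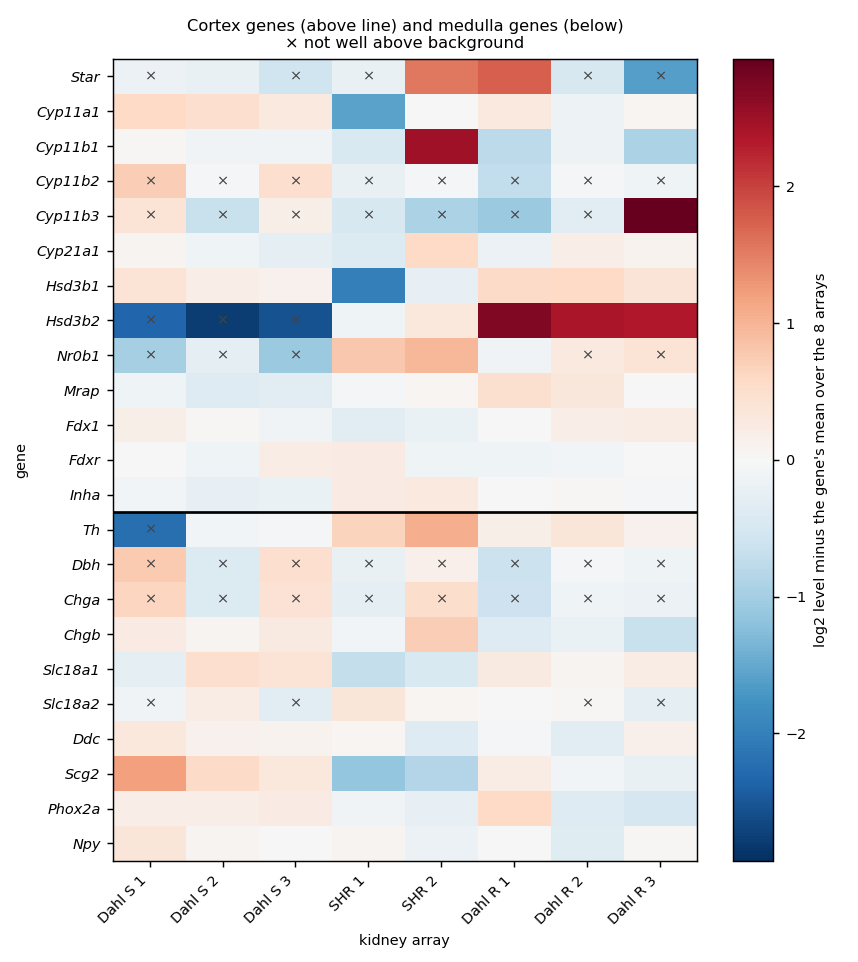
Cortex genes, Hsd3b2 included, above the line and medulla genes below it on 8 kidney arrays, SHR replicate 3 left out; colour is the log2 level minus the gene's mean over the 8 arrays, and crosses mark values not well above background. Cyp11b2, Dbh and Chga carry a cross on all 8 arrays, and Hsd3b2 carries one on the 3 Dahl S arrays alone.

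The other 2 SHR arrays differed from each other in steroid genes. Replicate 2 exceeded replicate 1 by 3.99 for Akr1b7, 2.93 for Cyp11b1, 1.76 for Star, 1.75 for Hsd3b1, 1.57 for Cyp11a1 and 1.00 for Cyp21a1 on the log2 scale. Over all 16463 probes the median of this difference was -0.00, and between 0.0121% and 2.56% of probes had a rise as large as these genes. Chgb differed by 0.80, Hsd3b2 by 0.43, Th by 0.41 and Slc18a1 by 0.24, and 4.39%, 12.2%, 13.0% and 20.8% of probes rose at least as far. These genes were singled out after their values were seen and rest on 1 rat each.

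Genes around Hsd3b2 and Akr1b7 on the chromosome were then read. Along chromosome 2 in GRCr8, the nearest tested genes on one side of Hsd3b2 include Hsd3b5, Phgdh, Adam30 and Notch2, and on the other are Hsd3b1, Hao2, Wdr3, Gdap2 and Tent5c. None of these 9 was called for Dahl S against Dahl R, beside 1.40% of all probes. Tent5c alone was called for SHR against Dahl R, beside 13.0% of all probes, with a log2 difference of -1.37 ± 0.22 (adjusted p = 0.00688, limma). Hsd3b5, known in mouse as a liver form that reduces steroids, read -6.76, -8.02 and -8.01 in Dahl S, -8.54, -8.71 and -4.69 in SHR and -5.08, -4.83 and -5.58 in Dahl R. It was well above background on the 3 Dahl R arrays and no others, and SHR replicate 3 sat at that array's background. Over all arrays the adjusted p was 0.445 for Dahl S against Dahl R and 0.212 for SHR against Dahl R. Without SHR replicate 3, when 4.59% and 22.8% of probes were called, it was 0.0155 and 0.00168, with log2 differences of -2.44 ± 0.37 and -3.46 ± 0.41, and Dahl S was at least 2.42-fold lower than Dahl R. Hsd3b7, which acts in bile acid synthesis, differed by 0.08 ± 0.16 for Dahl S against Dahl R (adjusted p = 0.959). Hsd3b copies are close in sequence, so signal of one copy on the probe of another cannot be told apart here.

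On chromosome 4 the 5 tested genes on one side of Akr1b7 are Akr1b10, Akr1b8, Akr1b1, Slc35b4 and Lrguk, and on the other Bpgm, Cald1, Tmem140, Cyren and Wdr91. None of the 10 was called for Dahl S against Dahl R, beside 1.40% of all probes. For SHR against Dahl R, 3 rose (Akr1b8, Akr1b1 and Cyren) and 1 fell (Tmem140), beside 13.0% of all probes called in either direction. Lrguk was well above background on 3 Dahl S, 3 Dahl R and 0 SHR arrays. Its difference for SHR against Dahl R was -3.23 ± 0.93 (adjusted p = 0.0602, limma), at least 3.62-fold lower. Without SHR replicate 3, when 22.8% of probes were called, it was -4.49 ± 0.22 (adjusted p = 3.8e-05). Akr1b10 was then at -1.43 ± 0.22 (adjusted p = 0.0046) and Slc35b4 at -0.59 ± 0.15 (adjusted p = 0.033). Akr1b8, a reductase of the same family, read -3.35, -3.00 and -3.15 in Dahl S, -1.15, -1.15 and -0.73 in SHR and -3.12, -2.91 and -3.19 in Dahl R. The SHR arrays lay above both Dahl strains, and the log2 difference was 2.06 ± 0.16 for SHR against Dahl R. Its adjusted p was 0.000209 (limma). Akr1b1, aldose reductase, which makes sorbitol in the renal medulla, was 0.70 ± 0.14 higher in SHR than in Dahl R (adjusted p = 0.0199), with no usable spot on SHR replicate 3.

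**Figure D4:**
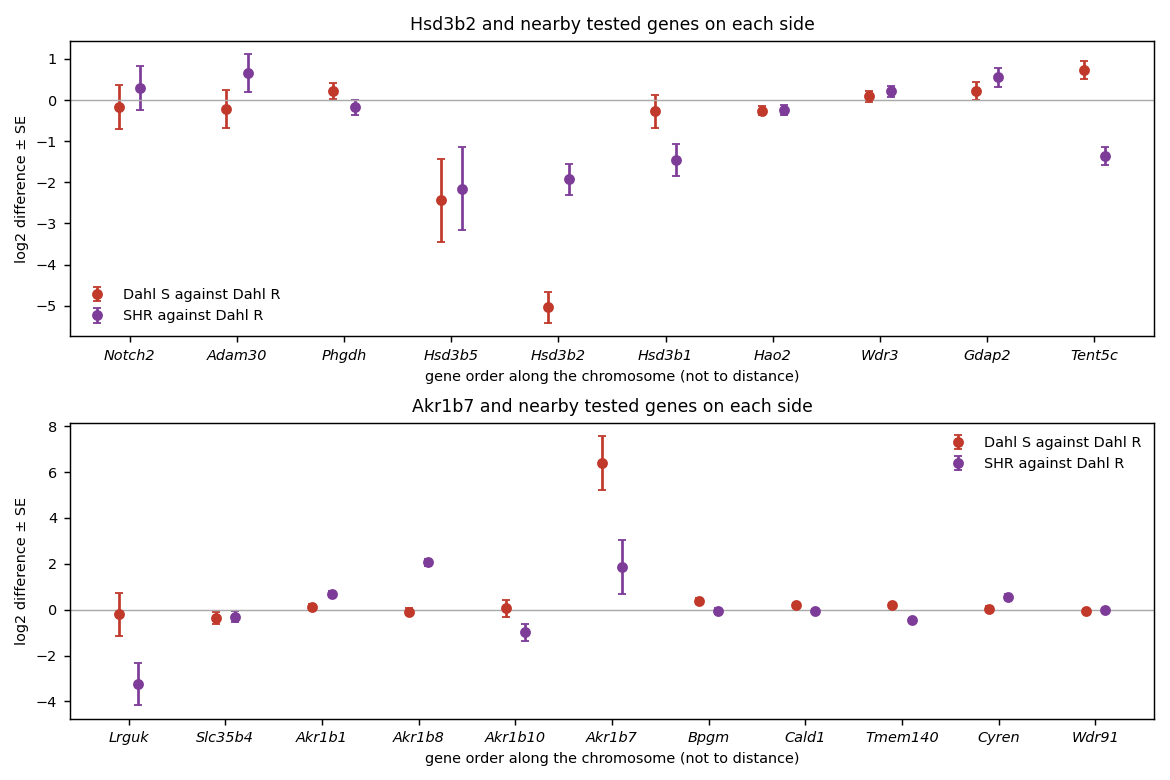
Log2 differences ± SE (vertical axis) of Hsd3b2, above, and Akr1b7, below, with nearby tested genes on each side in chromosome order; red is Dahl S against Dahl R and purple SHR against Dahl R. For Dahl S against Dahl R, none of the 19 neighbours shown passed the threshold, beside 1.40% of all probes.

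Genes that process steroids or respond to them were counted from lists chosen by role, leaving out Hsd3b2 and Akr1b7. Between Dahl S and Dahl R, 3 of 105 tested genes on all lists, tissue markers included, were called, beside 1.40% of all probes. Median log2 differences were 0.06 for aldo-keto reductases, -0.12 for sex steroid genes, -0.07 for cholesterol supply, 0.06 for receptors and 11β-hydroxysteroid dehydrogenases and 0.22 for corticosteroid-induced genes, beside 0.02 over all probes. Of 13 tested genes of sex steroid synthesis and reduction, Hsd17b2 rose and Hsd17b1 fell, and 11 did not pass. Hsd17b1, which makes estradiol from estrone, read -3.22, -2.98 and -3.29 in Dahl S, -4.72, -4.65 and -3.52 in SHR and -1.45, -1.52 and -1.47 in Dahl R. The Dahl R arrays lay above all others, and the log2 difference was -1.68 ± 0.30 for Dahl S (adjusted p = 0.0437) and -2.81 ± 0.30 for SHR (adjusted p = 0.00103, limma), each against Dahl R. Hsd17b2, which turns estradiol and testosterone into less active forms, read -0.01, 0.26 and 0.25 in Dahl S, 0.64, 0.07 and 0.43 in SHR and -1.28, -0.92 and -0.76 in Dahl R. Dahl R was lowest, and the log2 difference was 1.15 ± 0.19 for Dahl S (adjusted p = 0.0325) and 1.36 ± 0.19 for SHR (adjusted p = 0.00368), each against Dahl R. Of 15 tested aldo-keto reductases, Akr1c15 alone was called for Dahl S against Dahl R, at 1.90 ± 0.28 (adjusted p = 0.0200). The number called was 0 with the replicate block, within the first scan set, with no filter and with the percentile over unmarked spots, and 10 without SHR replicate 3.

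For SHR against Dahl R, 21 of 105 list genes were called, beside 13.0% of all probes. The medians of the same 5 lists were -0.08, 0.02, 0.04, -0.34 and -0.09, beside 0.11 over all probes. Among the aldo-keto reductases 4 rose (Akr1b1, Akr1b8, Akr1c14 and Akr1c15), 2 fell (Akr1c12l1 and Akr7a3) and 9 did not pass. Akr1c14, the rat 3α-hydroxysteroid dehydrogenase, was 0.77 ± 0.16 higher in SHR (adjusted p = 0.0216, limma). Of the sex steroid genes, Hsd17b2 rose, Hsd17b1 and Hsd17b7 fell and 10 did not pass. Among genes that supply cholesterol, Tspo, a protein of the outer mitochondrial membrane, rose, while Lss, an enzyme of cholesterol synthesis, fell by 1.07 on the log2 scale. Among steroid receptors and 11β-hydroxysteroid dehydrogenases, Nr3c2, the mineralocorticoid receptor, rose by 0.43 ± 0.09 on the log2 scale (adjusted p = 0.0256). Hsd11b1, Hsd11b2 and the glucocorticoid receptor Nr3c1 were not called in any comparison. Of 11 corticosteroid-induced genes, Dusp1 rose and Klf9 fell by 2.25 on the log2 scale.

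Between Dahl S and SHR, 24 of 105 list genes were called, beside 15.7% of all probes, and the medians of the 5 lists were 0.03, -0.05, -0.01, 0.27 and 0.16, beside -0.09 over all probes. Among corticosteroid-induced genes, Sgk1, a kinase that acts on the epithelial sodium channel, Klf9 and Ddit4 were higher in Dahl S, and Dusp1 and Scnn1a, the channel's alpha subunit, were lower. Sgk1 differed by 1.08 ± 0.15 (adjusted p = 0.00545, limma), reading 4.69, 4.85 and 4.80 in Dahl S against 3.85 and 3.55 in SHR, with no usable spot on SHR replicate 3. Akr1c1 and Akr1c12 were higher in Dahl S by 0.96 ± 0.19 and 1.46 ± 0.26, and Akr1b1 and Akr1b8 were lower. Hsd17b1, Lss and H6pd, which feeds NADPH to Hsd11b1, were higher in Dahl S, while Nr3c2 and the electron donor Por were lower.

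**Figure D5:**
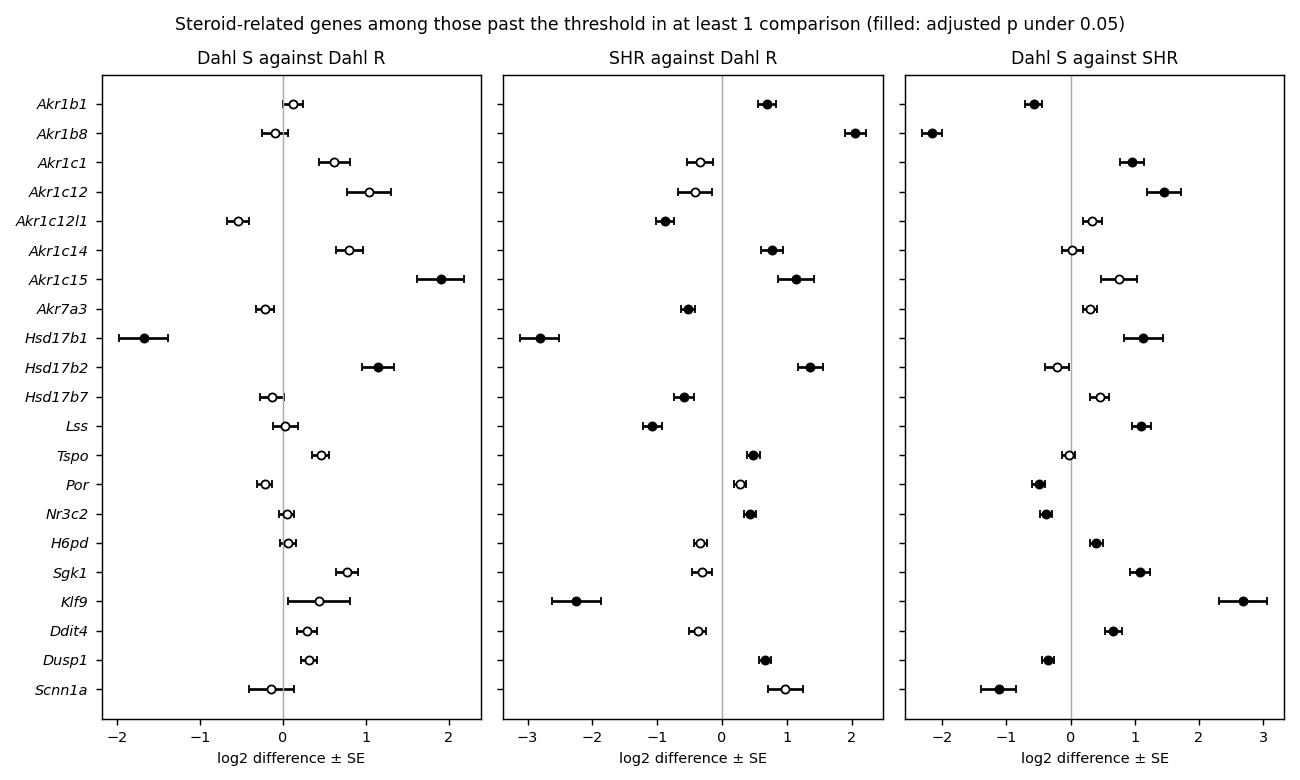
Log2 differences ± SE (horizontal axis) of steroid-processing and steroid-responsive genes, drawn from those called in at least 1 comparison, for Dahl S against Dahl R, SHR against Dahl R and Dahl S against SHR; filled points have an adjusted p under 0.05. For Dahl S against Dahl R the filled points are Akr1c15 at 1.90, Hsd17b1 at -1.68 and Hsd17b2 at 1.15.

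The genes whose pattern over the arrays was most like that of Hsd3b2, among 11043 probes compared by Pearson's r, were Gsta4 (r = 0.99), Atrn, Dync2h1, Spmip4 and Serpinc1 (r = 0.98 each). Gsta4 is a glutathione transferase and Serpinc1 encodes antithrombin. Serpinc1 read 1.72, 1.85 and 1.88 in Dahl S, 3.36 and 3.15 in SHR and 4.10, 4.02 and 3.95 in Dahl R, in the same strain order as Hsd3b2. Those most like Akr1b7 were Parp9 (r = 0.97), Trib1 (r = 0.95), Tagln, Slfn2 (r = 0.93 each) and Dyrk3 (r = 0.92). Without SHR replicate 3, the genes named for Akr1b7 ranked 2, 3, 10, 13 and 19, in the order given. Those named for Hsd3b2 then ranked 1, 4, 6, 3 and 8. Each r spans 8 or 9 arrays that share strains and scans, and it is a description.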

How the data were processed

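Kidney RNA of 9 rats was read on one-colour arrays, 3 per strain. The authors deposited each array's scanner output made by Agilent Feature Extraction (10.5.1.1). Its processed signal is an intensity, per the file headers, from which background and trend had been removed without scaling between arrays, and other deposited marks, coded 0 or 1, show spots well above background or outlying. The authors also deposited a table of values read as log2, since it correlated with the scanner log2 signal at r = 0.970 on SHR replicate 3 and 0.999 to 1.00 elsewhere; its normalization and centring are unknown.

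Each signal was put on the log2 scale minus the array's 75th percentile, taken over all spots but control spots, outlier-marked ones included. Control spots (1417 of 43553) and outlier-marked spots were left out, and spots of the same probe were averaged. The summed signals of marker lists kept outlier-marked spots. Testing needed a share of 0.5 or more spots above background by the software's mark on 3 arrays or more, which left 16592 of 24684 probes. Strains were compared with limma 3.58.1 in R 4.3.3 on all 9 arrays, with Benjamini-Hochberg adjustment over all tested probes and a threshold of 0.05, and the fit was tested on simulated data. The number of arrays limits the precision. The 10 genes and the gene lists were chosen with earlier results of these data known. Named are all 10 genes, list genes past the threshold in any comparison and the 5 most alike genes; chromosome neighbours, Hsd3b5, Hsd3b7, Hsd11b1, Hsd11b2 and Nr3c1 were added after values were seen. The array's probes were designed on another genome build than GRCr8, so no array coordinates are given. Alternatives were the background correction, normalization, filter, outlier spots, the authors' values, scan sets, a replicate block and leaving out each array. The background correction alternatives (normexp) added an offset of 50 to every signal, which narrows differences that involve dim signals. Some genes that passed the test or lie nearby are counted in the totals but not reported here.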

Additional observations from a re-analysis of the deposited data

How the results depend on the processing

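Over all probes, 233 were called for Dahl S against Dahl R, 2165 for SHR against Dahl R and 2605 for Dahl S against SHR, and the counts of list genes were 3, 21 and 24. In the same order, normexp background correction gave 43, 416 and 550 probes and 1, 7 and 8 list genes. The percentile over unmarked spots gave 40, 503 and 626 probes and 0, 4 and 7 list genes, and no filter on dim probes gave 93, 1188 and 1491 probes and 0, 11 and 12 list genes. The scan sets as a block gave 1 list gene for Dahl S against Dahl R, and 866 probes and 7 list genes for Dahl S against SHR; within the first scan set 32 probes and 0 list genes were called for Dahl S against Dahl R. Leaving out each array gave 74 to 761 probes and 0 to 10 list genes for Dahl S against Dahl R, 960 to 3772 probes and 8 to 31 list genes for SHR against Dahl R, and 1280 to 4345 probes and 10 to 29 list genes for Dahl S against SHR. The highest probe counts, 761, 3772 and 4345, came without SHR replicate 3.

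Of the 8 genes added for their roles, 0 were called in each comparison. For SHR against Dahl R, 1 was called with quantile normalization, 2 with probes detected on all arrays of a strain, 1 within the second scan set and 0 to 3 when an array was left out. Between Dahl S and SHR, 0 to 3 were called when an array was left out. Without SHR replicate 1 these included Cyp11b1, Hsd3b1 and Chgb.

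For Dahl S against SHR, normexp turned the sign of Hsd3b2, to 0.17 against -3.11, and of Nr0b1, to 0.53 against -2.06. It also turned Star to 0.54, Chgb to 0.63 and Th to 0.12, which were past the threshold in neither fit. It gave Hsd3b2 as -0.77 for Dahl S against Dahl R, against -5.04. On Dahl S replicate 2 the signal of a spot minus its local background was -26960, and the fitted background SD was 623, against 1.82 to 35.4 on the other arrays. A fit chosen after seeing the data left out spots with a local background over 2 times the array's median, 8 spots on that array. The SD there was then 2.01, and Hsd3b2 was -2.23 for Dahl S against Dahl R, -0.93 for SHR against Dahl R and -1.30 for Dahl S against SHR, with Nr0b1 at -0.87. That fit called 106, 1230 and 1438 probes and 1, 13 and 15 list genes. Akr1b7 was 3.81 for Dahl S against Dahl R there.

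Replicate numbers did not pair the arrays: deviations from strain means of same-numbered arrays correlated at -0.16 to 0.07, against -0.18 to 0.20 for different numbers. With the replicate number as a block, 75 and 1424 probes were called for Dahl S against Dahl R and SHR against Dahl R, and 0 list genes for Dahl S against Dahl R. The alternatives gave 2413 values of single genes, those of Hsd3b2 and Akr1b7 being counted as a description and not as a test. Of these values, 1937 kept their direction and their side of the threshold, 375 kept their direction and lost the threshold, and 30 gained it. The sign turned for 71: 2 with a call, Hsd3b2 and Nr0b1 above, and 69 past the threshold under neither setting. Those 69 include Cyp21a1 for SHR against Dahl R, -0.01 over all arrays and up to 0.21 when an array was left out, and Star for Dahl S against Dahl R, -0.21 over all arrays and 0.72 without Dahl R replicate 1. The signal over background limits Hsd3b2 in Dahl S, Akr1b7 in Dahl R and SHR, and Star in all strains.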
